A study of Mus musculus with 24 samples.

Results

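Genes that encode the precursors of neuropeptides outside the opioid family were followed in RNA libraries of 2 mouse brain regions, the ventral tegmental area (VTA) and the nucleus accumbens. The set was given by name and held 34 genes, from Adcyap1 to Vip, of which 33 were found among the 30270 genes of the deposited tables. Kiss1, the precursor of kisspeptin, was in none of the tables used here and has no value. The members were listed by name and not by a cut on their values, but with earlier results of these data known.

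Neuropeptides are short chains of amino acids cut from larger precursor proteins, stored in dense-core granules and released beside classical transmitters, mostly acting on G protein-coupled receptors. In the nucleus accumbens, Tac1 (substance P) is a known product of medium spiny neurons that carry the D1 dopamine receptor, while Sst and Npy are known from interneurons. Orexin (Hcrt) and melanin-concentrating hormone (Pmch) are made by neurons of the lateral hypothalamus, and relaxin-3 (Rln3) chiefly by neurons of the nucleus incertus in the brain stem.

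The study asked how the loss of the vitamin D receptor changes the response of the reward circuit to morphine. Frozen bilateral micropunches of both regions were taken from 12 C57BL/6 mice and sequenced as 24 libraries. Wild-type mice (Vdr+/+ in the labels, numbered 1, 2 and 3) and Vdr-/- mice (7, 8 and 9) had received phosphate-buffered saline (PBS), and wild-type mice (1.0, 1.1 and 1.2) and Vdr-/- mice (2.0, 2.1 and 2.2) had received morphine sulfate at 5 mg/kg, each by intraperitoneal injection 90 min earlier, so that each of the 8 groups held 3 mice. Values are listed below in this order of mice. Vdr-/- mice lack the receptor in every tissue and, according to the methods, were raised on a calcium- and lactose-enriched diet. Where the wild-type mice ate another diet, diet and genotype cannot be told apart. The methods also give an earlier time for saline controls of a time course, and whether the sequenced PBS mice were among those is not given in the sources used here. Age and sex are not given for these mice. The mouse numbers serve both regions, and the region difference was taken within each mouse.

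Between 9328726 and 30184426 reads fell on genes in a library. Vdr itself had 0 to 17 reads in a library and did not separate the genotypes, but 1 total per gene also counts reads outside a deleted part and so checks nothing. The accumbens library of wild-type PBS mouse 2 stood apart in its relation of counts to gene length (Spearman rho -0.44 across 12605 genes, against -0.13 to 0.21 in the other 11). This relation also moved with the injection. In the accumbens, rho was 0.02 to 0.21 in the 6 morphine libraries and -0.44 to 0.04 in the 6 PBS libraries. For the VTA (13081 genes) it was 0.06 to 0.18 after morphine and -0.23 to -0.05 after PBS. Its part in the morphine results was not tested. In the VTA, the summed level of 10 dopamine neuron markers ran from 2336 to 2895 CPM (counts scaled for the depth of each library) in the 3 wild-type PBS mice and was 2210 in Vdr-/- PBS mouse 8, against 207 to 1381 in the other 8 libraries. The lowest sums were those of wild-type morphine mice 1.2 (207) and 1.0 (288). All 10 markers had reads in every VTA library, and Slc6a3, the dopamine transporter, ran from 14.1 to 1144 CPM. In the accumbens, the summed level of 5 septum markers was 128 to 239 CPM in the 6 morphine libraries and 65.2 to 99.8 in the 6 PBS libraries, and that of 8 medium spiny neuron markers 2018 to 2926 against 3088 to 4133. Every one of these septum and medium spiny neuron markers had reads in every accumbens library. These marker levels move with the injection or with single libraries, and their part in the results was not tested. In such bulk tissue, fewer cells of a type and less RNA per cell cannot be told apart.

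Several neuropeptide genes are textbook targets of the cAMP response element-binding protein (CREB), whose full element is the palindrome TGACGTCA and whose half-site is TGACG, searched here on both strands. The 250 bases before each annotated start were read from RefSeq promoter windows (GRCm38.p6), which covered 27 of the 34 members. The palindrome was present in the windows of Cartpt, Sst and Ucn, and in a window of 1.77% of all 27025 genes (32851 windows, since a gene can have several). The half-site, which the palindrome contains on both strands, was present for 13 of the 27 members and for 19.8% of all genes. These members were Adcyap1, Cartpt, Cck, Cort, Ghrh, Kiss1, Nmu, Nts, Sst, Tac1, Trh, Ucn and Vip. The heptamer TGANTCA, searched on both strands, was found for 6 members (Avp, Nms, Nmu, Nts, Pmch and Prok2) and for 7.82% of all genes. A match describes these letters only, and says nothing of binding. Npy, Gal, Npvf and Rln3 were also called with morphine and held no half-site in their windows. The half-sites of the 6 members that both held one and changed with morphine are shown within 30 bases, 5′ to 3′ on the strand of the gene, with the half-site letters in capitals. The stretches lie at chr16:23890876-23890905, minus strand, 48 bases before the start, for Sst, at chr13:99900779-99900808, minus strand, 112 bases before the start, for Cartpt, at chr10:5639126-5639155, plus strand, 79 bases before the start, for Vip, at chr17:93198913-93198942, plus strand, 91 bases before the start, for Adcyap1, and at chr10:102490568-102490597, minus strand, 166 bases before the start, for Nts. The Adcyap1 half-site lies in the windows of 2 RefSeq starts, and the nearer start is given. Tac1 had half-sites at chr6:7555005-7555034, plus strand, 43 bases before the start (first) and at chr6:7554851-7554880, plus strand, 197 bases before the start (second). These starts are those of RefSeq. The gene spans given below, from GENCODE, begin farther upstream for Sst, Cartpt and Tac1, so that the Sst, Cartpt and first Tac1 stretches lie inside those spans and the second Tac1 stretch reaches into one.
Sst: gcgcctccttggcTGACGTCAgagagagag
Cartpt: gcccggcgggcatTGACGTCAaacggcagc
Vip: gggatcactactgTGACGtctttcggggag
Adcyap1: gggactaggatgcTGACGtcttttactgat
Nts: aattagggaagatCGTCActttccatcaag
Tac1 first: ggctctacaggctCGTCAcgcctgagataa
Tac1 second: ttccctaaaattgCGTCAtttcgaacacaa

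Levels between genes are given per length (RPKM, reads per kilobase of exon and scaled for depth). In the accumbens the median over 12 libraries was highest for Sst (140.0 RPKM), followed by Npy (55.7), Cck (32.2), Tac1 (31.005), Cartpt (15.2) and Nts (12.2). Cck and Tac1 were not apart, with ranges of 16.2 to 46.1 and 25.5 to 47.9 RPKM, whereas the lowest Sst value, 115 RPKM, lay above the highest of every other member. In the VTA the order was led by Pmch (185 RPKM), Hcrt (41.2), Sst (38.7), Adcyap1 (17.5) and Cck (11.6). Pmch ran there from 4.19 to 947 RPKM and Hcrt from 0.108 to 328, so that neighbours in the VTA order overlapped widely. Sst, at 17.7 to 62.2 RPKM, stood above 96.3% of all genes in the VTA by its median, and above 99.4% in the accumbens.

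A second group was hardly present. The median was under 3 reads for 13 of the 33 genes in the accumbens and for 10 in the VTA. Qrfp and Npw had no read in any of the 12 accumbens libraries. A count of 0 does not show absence, since the expected count in such a library can still be up to about 3 reads. Avp (vasopressin) had 0 to 9 reads in accumbens libraries and 0 to 3 in 11 VTA libraries, with 18 in the VTA of Vdr-/- morphine mouse 2.1. Oxt (oxytocin) had 66 reads in the accumbens of wild-type morphine mouse 1.1 and 34 in that of Vdr-/- morphine mouse 2.1, against 0 to 4 in the other 10. Ucn (urocortin) had 0 to 2 reads in the accumbens and up to 29 in the VTA, where Vdr-/- mice 9, 2.0 and 2.1 held 29, 18 and 14 reads. Agrp (agouti-related peptide) never exceeded 4 reads, Nps (neuropeptide S) 2, Npw (neuropeptide W) 5 and Nmu (neuromedin U) 9. Nms (neuromedin S) had 0 to 14 and 0 to 12 reads in the accumbens and the VTA, and Npb (neuropeptide B) 0 to 11 and 7 to 30. Ghrh (growth hormone-releasing hormone) had 1 to 8 and 5 to 35, with the 2 highest values, 29 and 35, in VTA libraries of wild-type morphine mice 1.0 and 1.2. Qrfp reached 24 and 7 reads in the same 2 VTA libraries and 0 in the other 10. With so few reads, differences between groups were not detectable at this depth for most of them.

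**Figure D1:**
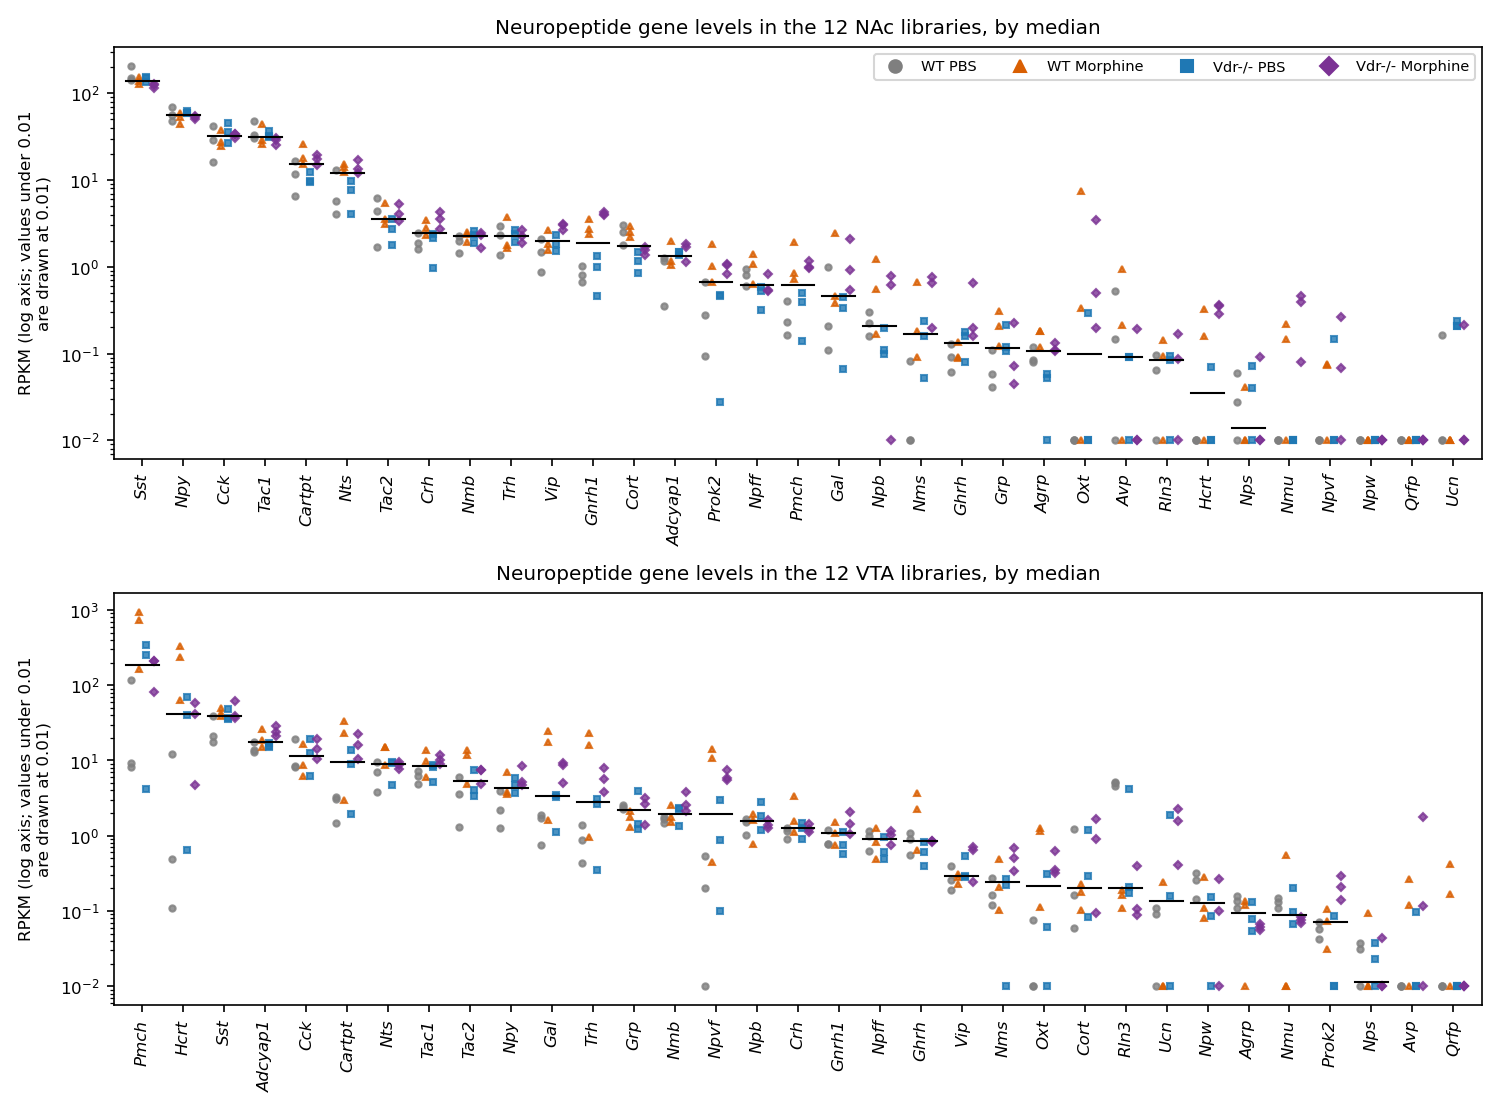
Level of each neuropeptide gene (RPKM, log axis, values under 0.01 drawn at 0.01) in the 12 nucleus accumbens libraries and the 12 VTA libraries, with a symbol for each group and a line at the median. Sst, Npy, Cck and Tac1 head the accumbens order, Sst above all others in each library, while Pmch and Hcrt head the VTA order with the widest ranges among the mice.

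Spread between mice of 1 group was larger for these genes than for the median gene, without matching for level. Over the members with a mean of at least 10 scaled reads, the median within-group SD of log2 values was 0.41 for 17 members in the accumbens, against 0.16 over 16004 genes, and 0.56 for 22 members in the VTA, against 0.13 over 16029 genes. In the accumbens, Sst (0.17) and Npy (0.18) varied about as much as a typical gene. Gal (1.17, at 1 to 32 reads) and Prok2 (1.15, at 1 to 58 reads) had the largest SDs. In the VTA, Hcrt (2.65) and Pmch (2.21) were exceeded by 6 and 13 of the 16029 genes, and Npvf (1.84) and Trh (1.55) by 22 and 44. Adcyap1, at 0.25, had the smallest SD among the members in the VTA. These SDs are descriptions and were not tested, nor was the part of low read counts in them.

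Set side by side within each mouse, the regions differed for 17 of the 21 members with enough reads (72.9% of the 16147 genes tested were called). Of these 17, 10 were higher in the accumbens (35.1% of all genes tested) and 7 higher in the VTA (37.8%), so the share of members called was near that of all genes. The largest differences toward the accumbens were those of Npy (log2 difference 3.79 ± 0.15 SE, adjusted p = 2.72e-10), the peptide of a class of striatal interneurons, and Vip (log2 difference 2.55 ± 0.16 SE, adjusted p = 1.45e-08), vasoactive intestinal peptide. Prok2 (prokineticin 2, 2.48), Cort (cortistatin, 2.28), Tac1 (2.08), Sst (2.00) and Cck (1.49) were likewise higher in the accumbens, each in 12 of 12 mice. Cartpt, the precursor of cocaine- and amphetamine-regulated transcript, was called at 0.95 although only 7 of 12 mice were higher in the accumbens. Crh (0.91) and Gnrh1 (0.74) were higher there in 10 and 9 mice.

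Toward the VTA, Pmch (log2 difference -7.27 ± 0.55 SE, adjusted p = 9.92e-08) and Hcrt (log2 difference -6.54 ± 0.64 SE, adjusted p = 1.22e-06) differed most and were higher there in 12 of 12 mice. Adcyap1, the precursor of the peptide PACAP, differed by -3.80 and Grp, gastrin-releasing peptide, by -3.66, again in 12 of 12 mice and with much smaller spread. Npvf (-3.76) and Gal (-2.70) were higher in the VTA in 10 and 11 mice, and Tac2 (neurokinin B, -0.55) in 7. Tac2 lost its call without mouse 1.0, 1.2, 2.2, 1 or 7. Nts, Nmb, Npff and Trh did not pass the test, with differences of 0.26, 0.13, -0.19 and -0.18. Of 22 members tested, 17 were called (63.1% of all genes), Tac2 not among them at an adjusted p of 0.0569, without the 6 mice whose VTA libraries stood highest or lowest in dopamine markers (1, 2, 3, 8, 1.0 and 1.2), a choice made after seeing the data.

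**Figure D2:**
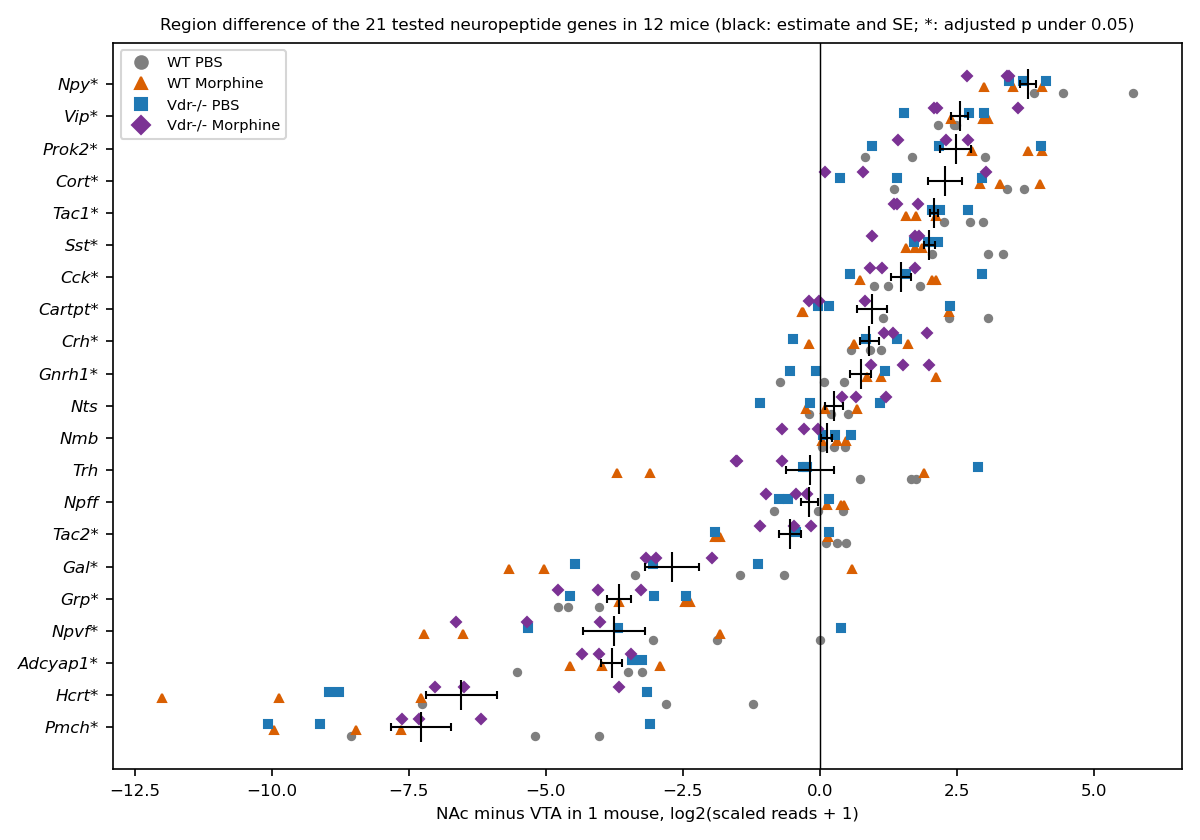
Difference between nucleus accumbens and VTA in each of 12 mice, on the log2(scaled reads + 1) scale, for the 21 tested genes, with the estimate and its SE in black and an asterisk at an adjusted p under 0.05. Npy, Vip, Tac1, Sst and Cck lie right of 0 (higher in the accumbens) in all mice and Pmch, Hcrt, Adcyap1 and Grp left of 0 in all, while Trh, Gal and Cartpt spread across mice.

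In the accumbens of Vdr-/- mice, 8 of the 15 members tested passed the threshold with morphine, against 19.1% of all 15820 genes. Cartpt, Crh, Gnrh1, Nts and Vip rose (9.94% of all genes rose), and Npy, Sst and Tac1 fell (9.13% of all genes fell). The morphine and PBS groups did not overlap for 9 of the 15 members, and for 5994 of all 15820 genes. Without morphine mouse 2.1 or 2.2, 4 members were called (10.3% and 12.4% of all genes), and without PBS mouse 9, 5 (9.90%). The median log2 fold change was 0.37 over the 15 members and -0.01 over all genes. In the accumbens of wild-type mice no member of 17 was called by limma, against 0.813% of 15749 genes. At an unadjusted p under 0.05, 4 of the 17 remained (16.6% of all genes). With edgeR and DESeq2, 1 was called each, Gnrh1 (1.01% and 3.26% of all genes). The median there was 0.30 over the members and 0.01 over all genes. Oxt and Gnrh1 were too low to be tested between genotypes in the accumbens after PBS. They passed the filter on low values here through their morphine libraries, as Gnrh1 did in Vdr-/- mice. Such entry favours a positive estimate, so the medians of both genotypes are descriptions only. In these wild-type mice the groups did not overlap for 2 of the 17 members, and for 4020 of all 15749 genes. Whether the morphine effect differed between genotypes was tested directly, and none of 16 members passed in the accumbens (0% of 15786 genes, 0 members and 5.80% of all genes at an unadjusted p under 0.05, and 0 with edgeR). The 2 accumbens comparisons share no library, but a call in one genotype and none in the other does not show a difference.

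Among the peptides that rose, Cartpt (ENSMUSG00000021647.7, chr13:99898489-99901091, minus strand) carries the CREB palindrome shown above. In the accumbens, Cartpt stood at 8.30, 21.1 and 14.97 CPM in the wild-type PBS mice, 32.9, 19.8 and 22.8 in the wild-type morphine mice, 12.01, 12.5 and 15.98 in the Vdr-/- PBS mice and 24.6, 19.1 and 22.6 in the Vdr-/- morphine mice. All 3 Vdr-/- morphine mice lay above all 3 Vdr-/- PBS mice (log2 fold change 0.68 ± 0.12 SE, adjusted p = 0.00353). In wild-type mice the groups overlapped, since PBS mouse 2 exceeded morphine mouse 1.1 (log2 fold change 0.81 ± 0.33 SE, adjusted p = 0.28). In the VTA, Cartpt stood at 3.90, 4.17 and 1.87 CPM in the wild-type PBS mice, 42.7, 3.84 and 29.2 in the wild-type morphine mice, 11.5, 2.496 and 17.6 in the Vdr-/- PBS mice and 28.9, 20.2 and 13.2 in the Vdr-/- morphine mice. Here wild-type morphine mice 1.0 and 1.2 were the highest and mouse 1.1 lay with the PBS mice, and the difference did not pass (log2 fold change 2.02 ± 0.92 SE, adjusted p = 0.234). The Vdr-/- mice overlapped in the VTA (log2 fold change 0.47, adjusted p = 0.359, limma, and 1.30 with adjusted p = 0.236 with PBS mouse 8).

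Gnrh1 (ENSMUSG00000015812.8, chr14:67745181-67749439, plus strand), the precursor of gonadotropin-releasing hormone, had the largest fold of the 8. In the accumbens, Gnrh1 stood at 0.424, 0.516 and 0.653 CPM in the wild-type PBS mice, 1.74, 2.31 and 1.55 in the wild-type morphine mice, 0.635, 0.296 and 0.846 in the Vdr-/- PBS mice and 2.52, 2.59 and 2.79 in the Vdr-/- morphine mice. These are 5 to 16 reads in PBS libraries and 17 to 47 in morphine libraries, and the injections did not overlap in either genotype. After PBS alone Gnrh1 was below the filter on low values, so its high morphine libraries brought it into these tests. The change passed in Vdr-/- mice (log2 fold change 2.10 ± 0.33 SE, adjusted p = 0.00171) and just missed the threshold in wild-type mice (log2 fold change 1.67 ± 0.29 SE, adjusted p = 0.054). In the VTA, Gnrh1 stood at 0.771, 0.493 and 0.501 CPM in the wild-type PBS mice, 0.981, 0.487 and 0.696 in the wild-type morphine mice, 0.723, 0.483 and 0.364 in the Vdr-/- PBS mice and 1.32, 0.908 and 0.680 in the Vdr-/- morphine mice. No such separation was seen there in wild-type mice (log2 fold change 0.13), the Vdr-/- estimate was 0.79 ± 0.43 SE, adjusted p = 0.263, and the morphine effect differed between the regions (difference of log2 fold changes 1.36 ± 0.38 SE, adjusted p = 0.0372).

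Nts (ENSMUSG00000019890.4, chr10:102481756-102490486, minus strand) encodes neurotensin, a peptide long studied beside dopamine. In the accumbens, Nts stood at 7.21, 16.4 and 5.10 CPM in the wild-type PBS mice, 18.98, 17.7 and 15.4 in the wild-type morphine mice, 5.13, 12.1 and 9.68 in the Vdr-/- PBS mice and 16.7, 14.97 and 21.4 in the Vdr-/- morphine mice. The Vdr-/- groups did not overlap and Nts rose (log2 fold change 1.01 ± 0.24 SE, adjusted p = 0.0154), a call lost with DESeq2 and without morphine mouse 2.2. The wild-type estimate was of like size (log2 fold change 1.00 ± 0.36 SE, adjusted p = 0.24), with PBS mouse 2 inside the morphine range. Without that library, which stood apart by gene length, wild-type Nts was called (1.46, adjusted p = 0.00601, limma), as were Gnrh1 and Prok2. The share of all genes called was then 3.97%, against 0.813% with it. In the VTA, Nts stood at 8.73, 11.8 and 4.79 CPM in the wild-type PBS mice, 18.6, 11.03 and 18.8 in the wild-type morphine mice, 11.7, 5.96 and 11.9 in the Vdr-/- PBS mice and 10.8, 11.8 and 9.59 in the Vdr-/- morphine mice. Morphine and PBS overlapped there in Vdr-/- mice and the estimates were 0.59 in wild-type and -0.14 in Vdr-/- mice (0.18 with PBS mouse 8), none called.

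Crh (ENSMUSG00000049796.4, chr3:19693401-19695396, minus strand), corticotropin-releasing hormone, rose in the accumbens of Vdr-/- mice (log2 fold change 0.97 ± 0.30 SE, adjusted p = 0.0415). In the accumbens, Crh stood at 3.27, 2.49 and 2.12 CPM in the wild-type PBS mice, 3.06, 4.57 and 3.74 in the wild-type morphine mice, 1.27, 3.13 and 2.86 in the Vdr-/- PBS mice and 4.70, 5.67 and 3.64 in the Vdr-/- morphine mice. The Vdr-/- groups were apart, yet Crh lost its call when any of 5 of the 6 libraries was left out, all but PBS mouse 8. In the VTA, Crh stood at 1.54, 1.70 and 1.19 CPM in the wild-type PBS mice, 2.07, 1.46 and 4.39 in the wild-type morphine mice, 1.95, 1.21 and 1.69 in the Vdr-/- PBS mice and 1.89, 1.48 and 1.63 in the Vdr-/- morphine mice. Only wild-type morphine mouse 1.2 stood above the rest of the VTA libraries. Vip (ENSMUSG00000019772.5, chr10:5639218-5647617, plus strand) rose in Vdr-/- accumbens (log2 fold change 0.61 ± 0.15 SE, adjusted p = 0.0159) and lost its call without morphine mouse 2.0 or 2.1 or PBS mouse 9. In the accumbens, Vip stood at 2.97, 5.07 and 7.14 CPM in the wild-type PBS mice, 6.25, 5.36 and 9.04 in the wild-type morphine mice, 7.83, 5.20 and 6.24 in the Vdr-/- PBS mice and 10.5, 10.5 and 9.11 in the Vdr-/- morphine mice. The 3 Vdr-/- morphine mice were the 3 highest of the 12, together above every wild-type mouse, but Vdr-/- against wild-type mice after morphine did not pass (log2 fold change 0.57 ± 0.18 SE, adjusted p = 0.453). In the VTA, Vip stood at 0.649, 0.877 and 1.37 CPM in the wild-type PBS mice, 0.775, 0.975 and 1.04 in the wild-type morphine mice, 1.00, 1.85 and 0.961 in the Vdr-/- PBS mice and 0.819, 2.44 and 2.18 in the Vdr-/- morphine mice. That is 13 to 43 reads, with no group apart.

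The members that fell in Vdr-/- accumbens, Sst, Npy and Tac1, were among the 4 most abundant there by median RPKM, and fell by small amounts. Sst (ENSMUSG00000004366.3, chr16:23889573-23890958, minus strand), somatostatin, also carries the palindrome. In the accumbens, Sst stood at 102, 150.1 and 108 CPM in the wild-type PBS mice, 100.1, 92.7 and 112 in the wild-type morphine mice, 109, 110.1 and 97.7 in the Vdr-/- PBS mice and 91.5, 82.8 and 90.9 in the Vdr-/- morphine mice. Each Vdr-/- morphine mouse was below each Vdr-/- PBS mouse (log2 fold change -0.29 ± 0.06 SE, adjusted p = 0.00679). Wild-type mice overlapped (log2 fold change -0.25 ± 0.14 SE, adjusted p = 0.413). Tac1 (ENSMUSG00000061762.12, chr6:7554879-7565834, plus strand) fell likewise in Vdr-/- mice (log2 fold change -0.28 ± 0.07 SE, adjusted p = 0.0243). In the accumbens, Tac1 stood at 113, 163 and 103 CPM in the wild-type PBS mice, 150.4, 89.3 and 98.5 in the wild-type morphine mice, 107, 109 and 125 in the Vdr-/- PBS mice and 103, 86.6 and 99.7 in the Vdr-/- morphine mice. Wild-type morphine mouse 1.0 lay above 2 of the 3 wild-type PBS mice, so no separation was seen in that genotype. Npy (ENSMUSG00000029819.6, chr6:49822710-49829507, plus strand), neuropeptide Y, had the smallest change called (log2 fold change -0.24 ± 0.06 SE, adjusted p = 0.0233). In the accumbens, Npy stood at 27.1, 39.9 and 31.8 CPM in the wild-type PBS mice, 30.6, 25.2 and 33.8 in the wild-type morphine mice, 34.03, 33.6 and 35.4 in the Vdr-/- PBS mice and 31.2, 30.1 and 28.6 in the Vdr-/- morphine mice. The Vdr-/- groups did not overlap and differed by a few CPM. Tac1 and Npy lost their calls without Vdr-/- morphine mouse 2.1 or 2.2 or PBS mouse 9, and Npy also with DESeq2, while Sst kept its call under all 11 alternatives. Beside these falls, all 8 medium spiny neuron markers fell in the same comparison (median log2 fold change -0.56) and 4 of 5 septum markers rose (median 1.03).

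**Figure D3:**
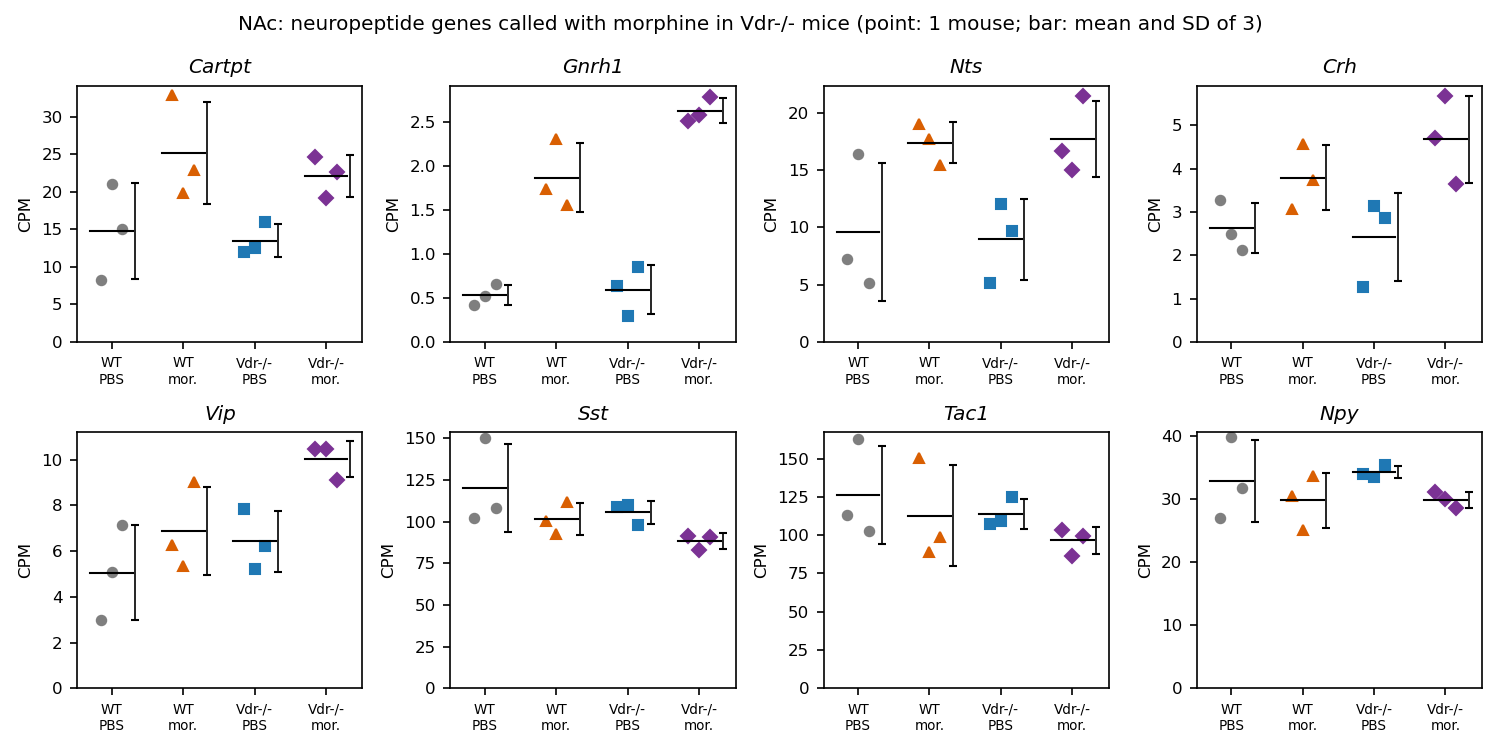
CPM of the 8 called genes in the 12 nucleus accumbens libraries, 1 point per mouse in each of the 4 groups, with bars at the mean and SD of 3 mice and axes from 0. The Vdr-/- morphine points lie above the Vdr-/- PBS points for Cartpt, Gnrh1, Nts, Crh and Vip and below them for Sst, Tac1 and Npy, whereas in wild-type mice only Gnrh1 separates.

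The other members passed in no genotype or morphine comparison of the accumbens by limma. Cck, cholecystokinin, was the third most abundant. In the accumbens, Cck stood at 21.1, 37.6 and 54.5 CPM in the wild-type PBS mice, 32.2, 35.7 and 49.2 in the wild-type morphine mice, 60.1, 35.4 and 46.3 in the Vdr-/- PBS mice and 44.3, 44.9 and 39.7 in the Vdr-/- morphine mice. The estimates were 0.10 in wild-type and -0.15 in Vdr-/- mice, within the spread. In the VTA, Cck stood at 11.2, 10.8 and 24.8 CPM in the wild-type PBS mice, 8.16, 21.5 and 11.5 in the wild-type morphine mice, 8.23, 25.4 and 16.6 in the Vdr-/- PBS mice and 13.7, 24.9 and 18.6 in the Vdr-/- morphine mice. Its VTA groups overlapped throughout. Prok2 came close in Vdr-/- accumbens (log2 fold change 2.01 ± 0.65 SE, adjusted p = 0.0511) and was called there by edgeR and DESeq2. In the accumbens, Prok2 stood at 0.182, 1.29 and 0.530 CPM in the wild-type PBS mice, 3.48, 1.95 and 1.28 in the wild-type morphine mice, 0.0529, 0.887 and 0.899 in the Vdr-/- PBS mice and 1.59, 2.09 and 2.04 in the Vdr-/- morphine mice. Vdr-/- PBS mouse 7 had a single read, and leaving it out brought the estimate to 1.00 with an adjusted p of 0.033 (limma). It was also called without PBS mouse 8 or 9. Prok2 had 0 to 9 reads in VTA libraries.

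Cort encodes a peptide related to somatostatin. In the accumbens, Cort stood at 1.21, 1.72 and 2.04 CPM in the wild-type PBS mice, 1.50, 1.70 and 2.01 in the wild-type morphine mice, 0.794, 1.01 and 0.582 in the Vdr-/- PBS mice and 0.927, 1.16 and 1.07 in the Vdr-/- morphine mice. The Vdr-/- mice were lower than the wild-type mice after PBS (log2 fold change -0.99 ± 0.30 SE, adjusted p = 0.461) and after morphine (log2 fold change -0.68, adjusted p = 0.592, limma). Neither difference passed, although all 6 Vdr-/- values lay below all 6 wild-type values. Over all genes, the genotypes did not overlap in the accumbens for 2700 of 15933 after PBS and 2107 of 15638 after morphine. In the VTA, Cort stood at 0.0406, 0.110 and 0.820 CPM in the wild-type PBS mice, 0.155, 0.122 and 0.0696 in the wild-type morphine mice, 0.0556, 0.805 and 0.199 in the Vdr-/- PBS mice and 0.0630, 1.13 and 0.612 in the Vdr-/- morphine mice. These are 1 to 20 reads. In the accumbens, Nmb (neuromedin B) had 17 to 39 reads, Npff (neuropeptide FF) 5 to 23, Trh (thyrotropin-releasing hormone) 27 to 85 and Tac2 43 to 141. The estimates for these 4 with morphine lay between -0.13 and 0.63 on the log2 scale, and none was called. Nmb and Npff share exonic positions with Sec11a and Gm28047, respectively, on their own strand, so their counts are uncertain.

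In the VTA the tables of morphine against PBS hold 3 libraries against 2, without wild-type PBS mouse 3 and Vdr-/- PBS mouse 8. In wild-type mice 2 of 22 members were called (3.65% of 16187 genes), of which 1 rose, Sst (1.77% of all genes rose), and 1 fell, Rln3 (1.88% fell). In Vdr-/- mice 3 of 21 members were called (10.02% of 16364 genes). All 3, Adcyap1, Gal and Npvf, rose (4.74% of all genes rose). With 3 libraries against 2, the groups did not overlap for 6 of 22 members and 7167 of 16187 genes in wild-type mice. The counts in Vdr-/- mice were 10 of 21 members and 7920 of 16364 genes. The summed level of 12 hypothalamic and mammillary markers was 60.5 to 162 CPM in wild-type morphine mice against 29.7 to 70.8 after PBS, and 82.0 to 103 against 49.0 to 72.9 in Vdr-/- mice. That of 5 oligodendrocyte markers was 5782 to 9529 against 11407 to 12425 CPM in wild-type and 7616 to 8426 against 11197 to 11617 in Vdr-/- mice. The oligodendrocyte sums did not overlap between injections in either genotype and the hypothalamic sums not in Vdr-/- mice, and their part in the calls was not tested. The median log2 fold change of the members was 0.55 in wild-type and 0.60 in Vdr-/- mice, against -0.01 and 0.00 over all genes. Without wild-type morphine mouse 1.1, which lay with the PBS mice for several members, 12 members were called in wild-type mice (17.4% of all genes then), whereas leaving out PBS mouse 1 or 2, or Vdr-/- PBS mouse 7, left 1 PBS library and no gene at all was called (0 of 16198, 16192 and 16366), which says nothing about the members. With all 6 libraries of a genotype, Sst lost its call and Pmch and Hcrt gained one in wild-type mice (12.3% of all genes then). Gal and Npvf lost theirs in Vdr-/- mice. None of 22 members differed in the morphine effect between genotypes (0% of 16240 genes, 2 members and 10.7% of all genes at an unadjusted p under 0.05, and 0 with edgeR).

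Rln3 (ENSMUSG00000045232.4, chr8:84042929-84045000, minus strand) gave the largest change called. In the VTA, Rln3 stood at 2.92, 3.29 and 3.19 CPM in the wild-type PBS mice, 0.103, 0.122 and 0.0696 in the wild-type morphine mice, 0.111, 2.66 and 0.133 in the Vdr-/- PBS mice and 0.252, 0.0567 and 0.0680 in the Vdr-/- morphine mice. The 4 libraries of wild-type PBS mice 1, 2 and 3 and Vdr-/- PBS mouse 8 held 33 to 72 reads, and the other 8 held 1 to 4. After morphine alone Rln3 was below the filter on low values, so its high PBS libraries brought it into the test. The fall in wild-type mice (log2 fold change -4.41 ± 0.37 SE, adjusted p = 0.0057) thus set the 2 high libraries of the table against 3 at 1 or 2 reads, and with all 6 it was -4.43 (adjusted p = 0.00063, limma). The same 4 libraries were the 4 highest of 12 in the dopamine marker sum, and in the sum of 4 serotonin neuron markers (12.4 to 26.4 CPM against 0.981 to 5.84). Most of the latter sum was Gata3, with a VTA median of 3.83 CPM. Tph2 (0.460), Fev (0.208) and Slc6a4 (0.0588, and 0 in the lowest library) had low medians, so serotonin neurons cannot be read from this sum. The part of these marker levels in the result was not tested. After PBS, Vdr-/- mice were lower by an estimate that missed the threshold (log2 fold change -2.90 ± 0.97 SE, adjusted p = 0.252). Without Vdr-/- PBS mouse 8, the estimate was -4.23 with an adjusted p of 0.000641 (limma). Rln3 had 0 or 1 read in accumbens libraries, too few to be tested there.

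Pmch (ENSMUSG00000035383.7, chr10:88091072-88092375, plus strand) and Hcrt (ENSMUSG00000045471.4, chr11:100761069-100762931, minus strand) varied most. In the VTA, Pmch stood at 6.09, 88.5 and 7.02 CPM in the wild-type PBS mice, 559, 122 and 709 in the wild-type morphine mice, 254, 3.14 and 189.7 in the Vdr-/- PBS mice and 159, 156 and 60.8 in the Vdr-/- morphine mice. Wild-type morphine mice 1.0 and 1.2 were the 2 highest and Vdr-/- PBS mouse 8 the lowest. In the VTA, Hcrt reads gave 0.0812, 9.10 and 0.365 CPM in the wild-type PBS mice, 176, 47.3 and 246 in the wild-type morphine mice, 51.8, 0.483 and 30.4 in the Vdr-/- PBS mice and 43.3, 31.3 and 3.54 in the Vdr-/- morphine mice. The same 2 mice were the highest, and counts ran from 2 reads in wild-type PBS mouse 1 to 3525 in wild-type morphine mouse 1.2. In wild-type mice the estimates with morphine were 3.93 ± 1.18 (SE, adjusted p = 0.109, limma) for Pmch and 6.80 ± 1.64 (SE, adjusted p = 0.0734, limma) for Hcrt. With all 6 libraries both were called (4.52 and 7.29, adjusted p = 0.034 and 0.0196). In Vdr-/- mice the estimates were -0.94 and -1.23 without PBS mouse 8 and 1.09 and 0.84 with it, so that their sign turned on that library, and none passed (limma adjusted p = 0.673 and 0.785 with it). Pmch had 2 to 24 reads and Hcrt 0 to 5 in accumbens libraries. In the accumbens, Pmch stood at 0.303, 0.172 and 0.122 CPM in the wild-type PBS mice, 1.44, 0.548 and 0.639 in the wild-type morphine mice, 0.370, 0.296 and 0.106 in the Vdr-/- PBS mice and 0.729, 0.881 and 0.750 in the Vdr-/- morphine mice. For Hcrt, accumbens values were 0 to 0.275 CPM. Pmch shares positions with Parpbp on the opposite strand, and the strand setting of the counting is not given in the sources used here.

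Gal (ENSMUSG00000024907.6, chr19:3409915-3414544, minus strand), galanin, was likewise highest in wild-type morphine mice 1.0 and 1.2. In the VTA, Gal stood at 1.34, 1.48 and 0.593 CPM in the wild-type PBS mice, 19.2, 1.28 and 13.999 in the wild-type morphine mice, 2.56, 0.886 and 2.78 in the Vdr-/- PBS mice and 7.25, 6.92 and 3.95 in the Vdr-/- morphine mice. Mice 1.0 and 1.2 were far above mouse 1.1, which lay among the PBS mice (log2 fold change 2.25 ± 1.05 SE, adjusted p = 0.243). The 3 Vdr-/- morphine mice exceeded the 3 Vdr-/- PBS mice, and Gal rose in the deposited table (log2 fold change 1.11 ± 0.27 SE, adjusted p = 0.0459). The call was lost without PBS mouse 9, without morphine mouse 2.0 or 2.1 and with no filter on low values. Adding Vdr-/- PBS mouse 8, the lowest of that group, gave 1.62 with an adjusted p of 0.0617 (limma). In the accumbens, Gal stood at 0.787, 0.0860 and 0.163 CPM in the wild-type PBS mice, 0.300, 1.95 and 0.365 in the wild-type morphine mice, 0.0529, 0.355 and 0.265 in the Vdr-/- PBS mice and 0.729, 1.65 and 0.429 in the Vdr-/- morphine mice. Wild-type mouse 1.1 and Vdr-/- mouse 2.1, the mice with the most accumbens Oxt reads, were the highest there.

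Npvf (ENSMUSG00000029831.7, chr6:50650672-50654439, minus strand), the precursor of RF-amide-related peptides, rose in Vdr-/- VTA (log2 fold change 1.88 ± 0.44 SE, adjusted p = 0.042). In the VTA, Npvf stood at 0.162, 0.439 and 0 CPM in the wild-type PBS mice, 11.5, 0.366 and 8.85 in the wild-type morphine mice, 0.723, 0.0805 and 2.42 in the Vdr-/- PBS mice and 6.05, 4.77 and 4.49 in the Vdr-/- morphine mice. The Vdr-/- groups did not overlap, while wild-type mouse 1.1 lay inside the PBS range. The call was lost without any 1 of the 3 morphine mice. With all 6 libraries the estimate was 2.99 and the adjusted p 0.0777 (limma). Npvf had 0 to 2 reads in accumbens libraries, too few for a comparison of groups there. Trh was also highest in mice 1.0 and 1.2. In the VTA, Trh values were 1.22, 1.92 and 0.593 CPM in the wild-type PBS mice, 31.9, 1.34 and 22.1 in the wild-type morphine mice, 3.62, 0.483 and 4.21 in the Vdr-/- PBS mice and 7.81, 10.9 and 5.24 in the Vdr-/- morphine mice. It was not called in either genotype (log2 fold change 0.96 ± 0.28 SE, adjusted p = 0.0707, in Vdr-/- mice, and 1.92 with adjusted p = 0.137 with PBS mouse 8).

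Adcyap1 (ENSMUSG00000024256.6, chr17:93199017-93206537, plus strand) was the member with the tightest VTA values. In the VTA, Adcyap1 stood at 67.4, 51.4 and 49.5 CPM in the wild-type PBS mice, 99.3, 69.6 and 57.9 in the wild-type morphine mice, 57.1, 58.8 and 64.97 in the Vdr-/- PBS mice and 89.9, 80.3 and 109 in the Vdr-/- morphine mice. The 3 Vdr-/- morphine mice lay above the 3 Vdr-/- PBS mice (log2 fold change 0.60 ± 0.12 SE, adjusted p = 0.0316), and with all 6 libraries it was still called (0.61, adjusted p = 0.023, limma). Its call was lost without PBS mouse 9 or morphine mouse 2.2. In wild-type mice the groups overlapped (log2 fold change 0.29 ± 0.21 SE, adjusted p = 0.442). In the accumbens, Adcyap1 stood at 1.33, 4.39 and 4.81 CPM in the wild-type PBS mice, 3.96, 4.38 and 7.49 in the wild-type morphine mice, 5.56, 5.15 and 5.61 in the Vdr-/- PBS mice and 4.24, 6.99 and 6.43 in the Vdr-/- morphine mice. Wild-type PBS mouse 1 was the lowest and no group stood apart. Grp (ENSMUSG00000024517.16), on chromosome 18, was among the VTA-enriched members. In the VTA, Grp stood at 3.33, 3.51 and 3.78 CPM in the wild-type PBS mice, 3.15, 1.95 and 2.65 in the wild-type morphine mice, 2.11, 5.80 and 1.82 in the Vdr-/- PBS mice and 2.08, 3.86 and 4.63 in the Vdr-/- morphine mice. All 3 wild-type morphine values lay below the wild-type PBS values, but the difference did not pass (log2 fold change -0.46 ± 0.23 SE, adjusted p = 0.278), and the Vdr-/- groups overlapped. In the accumbens Grp had 1 to 6 reads.

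In wild-type VTA the Sst estimate had the sign opposite to the accumbens. In the VTA, Sst stood at 12.7, 15.1 and 28.03 CPM in the wild-type PBS mice, 35.4, 27.8 and 31.3 in the wild-type morphine mice, 25.97, 35.2 and 26.7 in the Vdr-/- PBS mice and 26.7, 44.8 and 27.97 in the Vdr-/- morphine mice. In the deposited table of wild-type mice the 3 morphine values lay above the 2 PBS values (log2 fold change 1.14 ± 0.12 SE, adjusted p = 0.0101). The call was lost without morphine mouse 1.2. PBS mouse 3, absent from that table, stood at 28.0 CPM, inside the morphine range, and with it the estimate was 0.82 with an adjusted p of 0.0732 (limma). In Vdr-/- mice the groups overlapped (log2 fold change 0.29 ± 0.20 SE, adjusted p = 0.389). Tac1 in the VTA stood at 24.6, 21.1 and 16.6 CPM in the wild-type PBS mice, 46.9, 20.5 and 33.6 in the wild-type morphine mice, 27.9, 17.7 and 29.2 in the Vdr-/- PBS mice and 30.7, 34.1 and 40.1 in the Vdr-/- morphine mice. Neither genotype passed (log2 fold changes 0.45 and 0.28). Npy in the VTA stood at 1.26, 0.713 and 2.23 CPM in the wild-type PBS mice, 3.98, 2.13 and 2.02 in the wild-type morphine mice, 3.28, 2.66 and 2.12 in the Vdr-/- PBS mice and 2.96, 4.82 and 2.65 in the Vdr-/- morphine mice. The wild-type estimate was 1.36 (adjusted p = 0.0951, limma) at 13 to 77 reads.

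**Figure D4:**
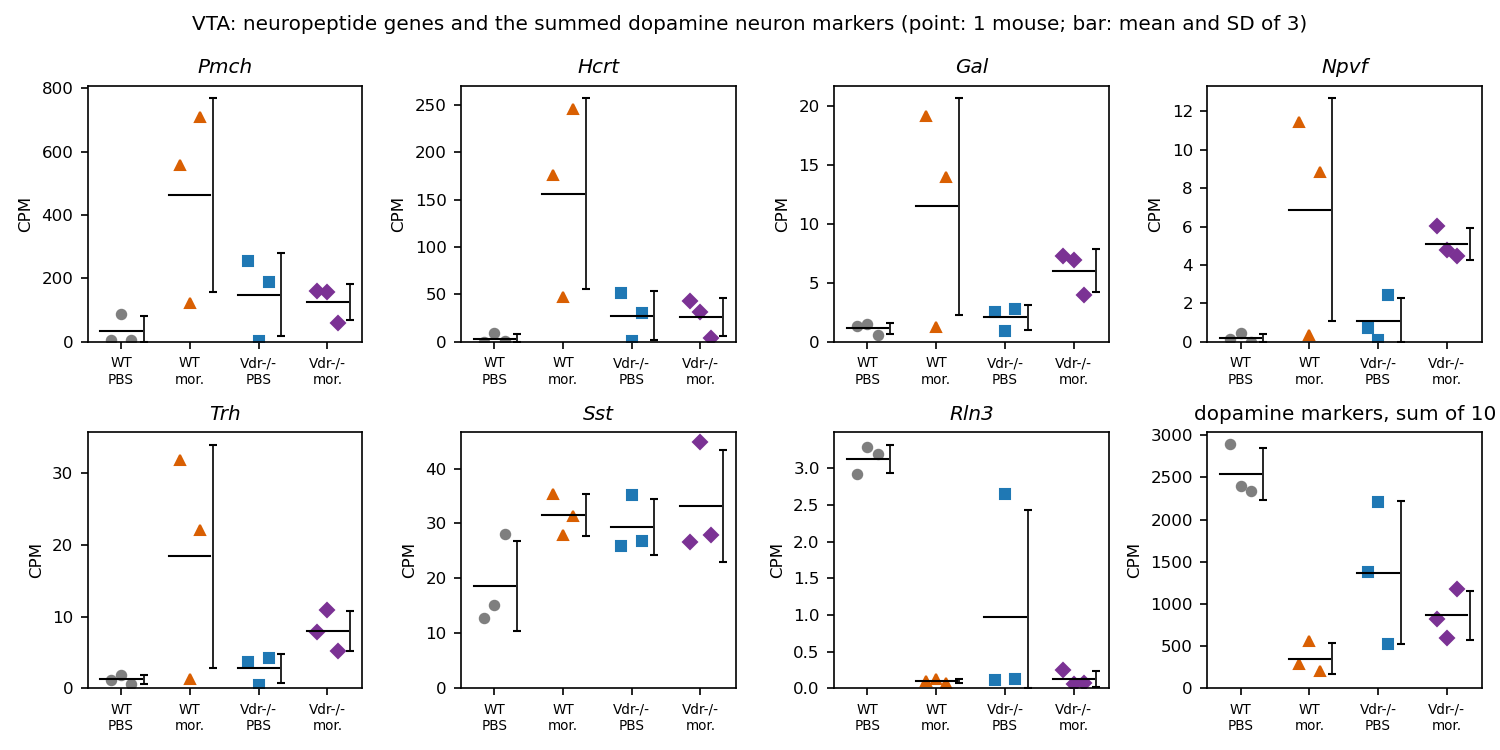
CPM of 7 genes and the summed CPM of 10 dopamine neuron markers in the 12 VTA libraries, 1 point per mouse in each of 4 groups, with bars at the mean and SD of 3 mice and axes from 0. Pmch, Hcrt, Gal, Npvf and Trh are high in the same 2 of 3 wild-type morphine mice, and Rln3 is high in the wild-type PBS mice and 1 Vdr-/- PBS mouse, which also have the highest dopamine marker sums.

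The direct test of whether morphine acted differently in the regions called 3 of 21 members (12.4% of 16147 genes). Gnrh1 was more increased in the accumbens (6.26% of all genes lay in this direction). Sst (difference -0.77 ± 0.21 SE, adjusted p = 0.033) and Tac1 (difference -0.82 ± 0.15 SE, adjusted p = 0.00625) had the lower morphine estimate there (6.16%). Their estimates were below 0 in the accumbens and above 0 in the VTA in both genotypes. Tac1 kept its call under all 17 alternatives whereas Sst lost it without mouse 1.0, 1.2, 2.1, 1, 2, 7 or 9 and Gnrh1 without mouse 1.1, 1.2, 2.1, 2.2, 1, 7 or 8, with edgeR and with no filter. The genotype effect did not differ between regions for any of 21 members (0% of 16147 genes, 2 members and 5.59% of all genes at an unadjusted p under 0.05, and 0 with edgeR).

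No member was called between Vdr-/- and wild-type mice, in comparisons that share their mice with the morphine comparisons. After PBS, 0 of 15 members in the accumbens passed (0.0690% of 15933 genes) and 0 of 21 in the VTA (0.390% of 16425). After morphine, 0 of 19 passed in the accumbens (0.192% of 15638) and 0 of 21 in the VTA (0.0624% of 16029). At an unadjusted p under 0.05 the counts were 1, 3, 4 and 3 in that order, against 8.94%, 14.2%, 7.73% and 8.77% of all genes, and edgeR and DESeq2 called 0 members in each comparison. With 0.0624% to 0.390% of all genes called, fewer than 1 call would fall among 21 genes at the background share. In the VTA after PBS, the median over the 21 members was 0.36, against 0.00 over all genes. Several members moved together by library there. Pmch, Hcrt, Gal, Trh, Npvf and Cartpt ranked 3 to 7 of the 12 VTA libraries in Vdr-/- PBS mice 7 and 9. In the wild-type PBS mice and Vdr-/- PBS mouse 8 they ranked 8 to 12, so the members are not independent of each other. The largest estimates there were those of Hcrt (log2 fold change 3.56 ± 1.98 SE, adjusted p = 0.45), Npvf (1.84), Pmch (1.75) and Cartpt (1.32) upward and Rln3 downward. Without Vdr-/- PBS mouse 8, Cartpt was called there (2.15, adjusted p = 0.0295, limma), as was Rln3, and so were 2.25% of all genes. All 10 dopamine markers were lower there in Vdr-/- mice (median -1.04), none of them called. After morphine in the VTA, Hcrt (log2 fold change -2.91 ± 0.96 SE, adjusted p = 0.506) and Pmch (log2 fold change -1.67) were lower in Vdr-/- mice by estimates that did not pass.

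**Figure D5:**
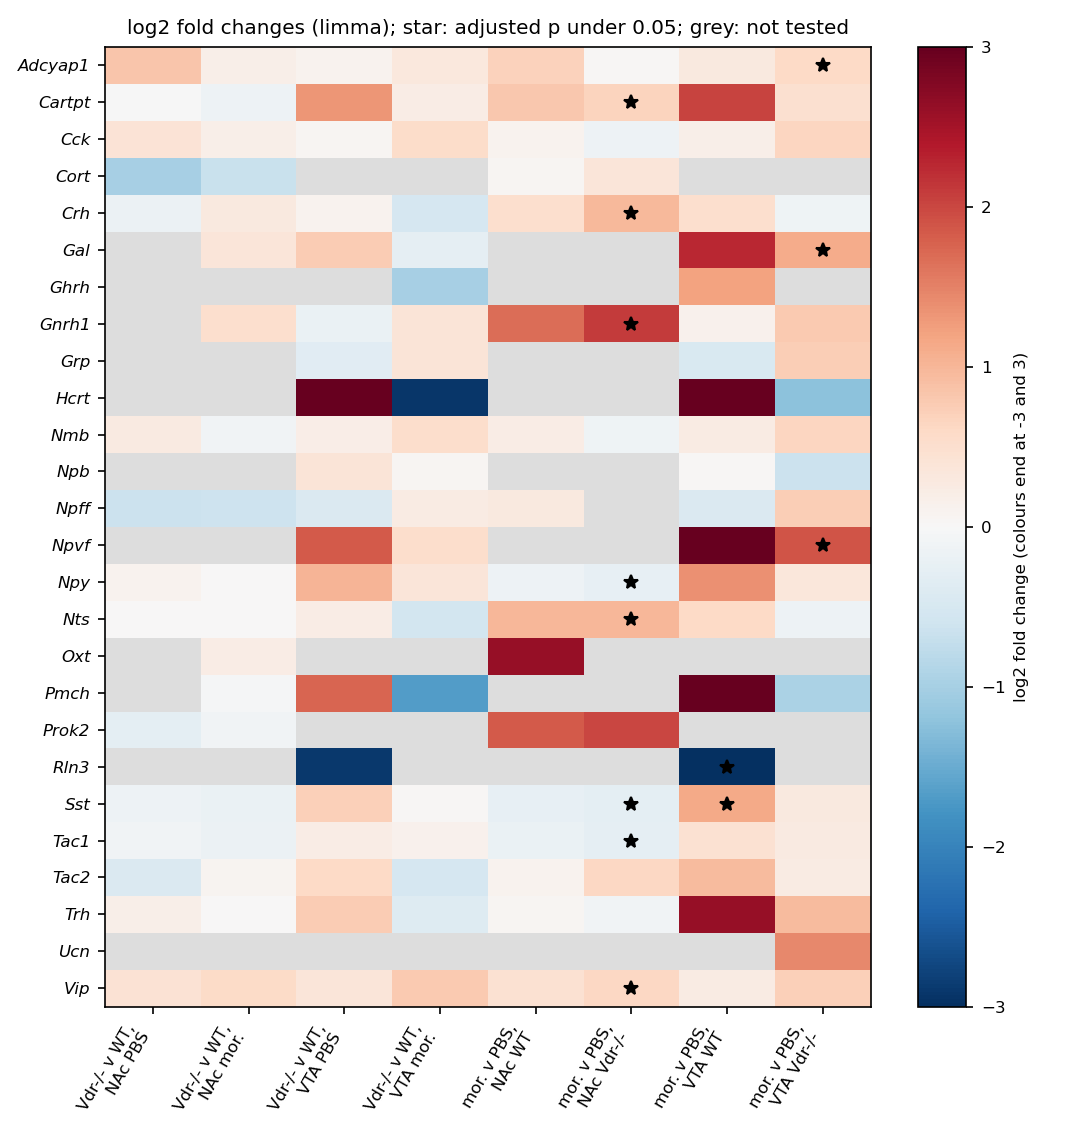
log2 fold change (colour, ending at -3 and 3) of each tested gene in the 4 genotype and 4 morphine comparisons, with a star at an adjusted p under 0.05 and grey where too few reads were present. All 13 stars lie in 3 of the 4 morphine columns, 8 of them in Vdr-/- accumbens, and no genotype column holds one.

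The receptors of these peptides and the machinery that makes them were read from lists chosen with earlier results known. Of 48 receptor genes, 40 were tested in Vdr-/- accumbens, where 10 rose and 4 fell with morphine (median 0.23), against 9.94% and 9.13% of all genes, and 1 of 40 rose in wild-type accumbens, where 0.813% of all genes were called. In the VTA, 3 rose and 2 fell of 41 in wild-type mice (1.77% and 1.88% of all genes), and 3 of 41 rose in Vdr-/- mice (4.74%). Receptors with the largest changes called were Avpr1a (vasopressin receptor, 2.22 ± 0.59 SE) and Cckar (cholecystokinin A receptor, 2.07 ± 0.66) in Vdr-/- accumbens and Rxfp3, the relaxin-3 receptor, in wild-type accumbens (1.41 ± 0.19). Avpr1a and Cckar were low, at 0.106 to 2.10 and 0 to 1.72 CPM in accumbens libraries (limma adjusted p = 0.0241 and 0.048). In wild-type VTA, Vipr2 (1.37) and Oxtr (1.09) rose and Ntsr1, a neurotensin receptor known from dopamine neurons, fell by 1.29 on the log2 scale beside 7 of 10 dopamine markers. In Vdr-/- VTA, Trhr (1.26, adjusted p = 0.0321, limma) and Prokr2 (1.18, adjusted p = 0.0441, limma, at 1.37 to 10.02 CPM) rose. They are the receptors for the products of Trh, which was not called there, and of Prok2, which had 0 to 9 reads in VTA libraries. All these VTA calls rest on 3 libraries against 2, and their alternatives are not given here. No receptor was called between genotypes.

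Of 16 genes for peptide processing and granules, 4 rose and 2 fell in Vdr-/- accumbens with morphine (9.94% and 9.13% of all genes), and 0 of 16 were called in wild-type accumbens by limma, where the share over all genes was 0.813%. In wild-type VTA 2 rose and 1 fell (1.77% and 1.88%), and in Vdr-/- VTA 4 rose (4.74%). Vgf, a granule protein and peptide precursor, rose in wild-type VTA (0.97 ± 0.14 SE), where Pcsk2, a prohormone convertase, rose by 0.57 and Cadps2, which primes granules for release, fell by 1.28 on the log2 scale. Pcsk1, another convertase (0.55), and Pam, the amidating enzyme (0.44), rose in Vdr-/- VTA. The VTA calls of this list likewise rest on 3 libraries against 2. Scg2 (secretogranin 2) rose by 0.33 and Ptprn2 fell by 0.16 in Vdr-/- accumbens. No gene of this list was called between genotypes.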

How the data were processed

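Total RNA of both regions was sequenced from strand-marking libraries. According to the submitters' processing notes, the authors used CASAVA 1.8, Trimmomatic 0.36 and STAR 2.4.2a, counted reads per gene with STAR and scaled them with DESeq2. The methods name a GENCODE mouse annotation, written there as version CGRm38. The strand setting of the counting is not given in the sources used here. The 8 deposited tables therefore hold a signal, reads per gene divided by size factors, set separately in each table. All values came back as whole reads within 0.01, so reads, CPM and RPKM were computed from them. Libraries held 9328726 to 30184426 reads on genes, and precision is limited by 3 mice a group.

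Each comparison was fitted on log2(value + 1) with limma 3.58.1 in R 4.3.3 over genes with a mean of at least 10, two-sided, with Benjamini-Hochberg adjustment at 0.05, so that fold changes of low genes are understated. The region fit kept the mouse as a block. Alternatives were a pseudocount of 5, no filter on low values, TMM scaling, edgeR 4.0.16 and DESeq2 1.42.0 on recovered reads, all 6 libraries, a replicate block and leaving out each library. Tests between tables were not made except on recovered reads. The code was tested on simulated data. Nothing says that the mice of a group came from separate litters or days. Values in every library are given for members called in a genotype, morphine or interaction comparison, among the 5 highest in RPKM in a region, or among the 6 largest region differences in each direction, and Trh was added after its values were seen. Members and lists were chosen with earlier results of these data known. Gene positions come from a GRCm38 annotation, which held 30204 of 30270 gene IDs, and promoter sequences from RefSeq. The promoters of Npff, Npw, Grp, Crh, Agrp, Gnrh1 and Npb were not used here.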

Additional observations from a re-analysis of the deposited data

Results flagged for a closer look

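The change with morphine differed between the nucleus accumbens and the VTA for 3 members, by a direct test of the difference over 12 mice (limma). For Tac1 the difference of log2 fold changes (accumbens minus VTA) was -0.82, for Sst -0.77 and for Gnrh1 1.36. In the same test 8 medium spiny neuron markers had a median difference of -0.66, with 4 of them called. Their part in the result was not tested.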

How the results depend on the processing

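Of 174 counts of called members under alternatives, 154 stayed within 1.5 times, and of 500 alternatives for single called members, all kept their direction and 440 their call. A count of 0 against 0 was scored as within 1.5 times, and most of the 154 were of that kind. The 500 include the region test, where only Tac2 lost its call. Among the morphine calls, Cartpt, Gnrh1 and Sst in Vdr-/- accumbens kept theirs under 11 of 11 alternatives. All other morphine calls were kept under 5 to 9 of 11. In wild-type accumbens, edgeR and DESeq2 each called 1 member with morphine, against 0. With all 6 VTA libraries of Vdr-/- mice, 1 member was called, against 3. Leaving out 1 library gave 0 to 2 members between genotypes in the VTA after PBS (2 without Vdr-/- PBS mouse 8), 0 to 3 with morphine in wild-type accumbens (3 without PBS mouse 2), 4 to 11 in Vdr-/- accumbens, 0 to 12 in wild-type VTA, 0 to 4 in Vdr-/- VTA, 1 to 6 for the region dependence of the morphine effect (6 without mouse 1.1, 1 without mouse 1.2, 2.1 or 1) and 0 to 1 for its genotype dependence in the VTA (1 without Vdr-/- PBS mouse 8). The cause was not tested, except that in the VTA tables of morphine against PBS a left-out PBS library leaves 1, and without wild-type PBS mouse 1 or 2 or Vdr-/- PBS mouse 7 no gene at all was called. Over all genes, DESeq2 called 64, 52, 274 and 94 genes in the genotype comparisons (accumbens PBS, accumbens morphine, VTA PBS, VTA morphine), against 11, 30, 64 and 10 by limma, and 514, 2096, 1423 and 1919 with morphine (accumbens wild-type and Vdr-/-, VTA wild-type and Vdr-/-), against 128, 3018, 591 and 1639. The last digit of the mouse numbers was shared by wild-type and Vdr-/- morphine mice, but same-numbered mice did not deviate together (correlations -0.06 to -0.02 in the accumbens and -0.28 to -0.15 in the VTA). A replicate block on that digit called 0 members in both regions, and 19 and 4 genes, against 30 and 10. The share of all genes called also moved with the library left out. It ran from 0.0791% to 2.25% between genotypes in the VTA after PBS. With morphine it ran from 0% to 3.97% in wild-type accumbens and from 9.90% to 19.8% in Vdr-/- accumbens. Members with few reads are limited by depth.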
